A study of Mus musculus with 8 samples.

Results

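The regions described here are places in the genome of the mouse left ventricle where DNA carrying 5-hydroxymethylcytosine (5hmC) was recovered in most of the pools examined. A region was called filled in a library when it held at least 5 raw reads there. Of the 11664 regions of the ventricular list, 11509 lay on the 19 autosomes, 9255 of these had the list's commonest width of exactly 2544 bp, and 8284 of those shared no base with a region of the hippocampal list. The 1026 of these 8284 that were filled in at least 3 of the 4 ventricular libraries are called well-filled regions. They make up 8.80% of the ventricular list. The remainder of the 8284 were filled in 2 libraries (3588 regions), 1 library (3661) or none (9), and serve as the comparison. The well-filled regions were thus chosen by their raw counts in these same 4 libraries, so their counts are given as a description.

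All mice were C57BL/6, and tissue was taken 20 weeks after a sham exposure (0 Gy) or 1 Gy of protons. The question was whether 1 exposure is followed by a lasting difference of 5hmC in the heart. Immunoprecipitated DNA was sequenced from 2 pools of ventricle per dose, so 4 libraries carry every value below. The series also has 4 hippocampal libraries, whose region list was used to leave out shared regions. DNA of 5 mice in each treatment group was combined, and the sources used here do not say whether each pool holds 5 mice. The labels name no sorting of cells, so the values average over the cell types of the tissue, and fewer cells carrying the mark cannot be told apart from less of the mark per cell. DNA counts of this kind hold no marker genes against which the tissue label could be checked.

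5hmC arises when TET enzymes, which are dioxygenases, oxidise 5-methylcytosine, the common methyl mark of CpG sites. It is both a step towards removal of the methyl group and a lasting mark, found mainly over the bodies of transcribed genes and at active enhancers. Brain is rich in it, and heart muscle carries less. In DNA immunoprecipitation an antibody pulls down fragments carrying the mark, and the number of reads over a region is its relative abundance in the library. No annotation or sequence of mm9, the build named in the submitters' processing notes, was used here, so regions are given by coordinates of that build, with no gene names.

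The libraries differed in their counts over the listed regions. Sequencing depth is not given apart from these counts, so depth and enrichment cannot be told apart. Summed over all ventricular regions, the sham libraries held 81794 and 49649 counts and the irradiated libraries 86857 and 111035. The largest count of a single region was 6945 and 6149 in the sham libraries and 1850 and 8347 in the irradiated ones. Such regions were kept in the totals, on which total-count scaling and the shares of a library below rest. Where a library showed no read, up to 3 counts are still possible by counting error alone. Scaling differed by method: relative to sham pool 1, irradiated pool 1 was 0.696 times as large under TMM (a trimmed mean of ratios between libraries) and 1.06 times as large by total counts. TMM was computed over the regions that entered the dose test, and total counts over the whole list, so these scalings differ in their regions too. The regions that entered the dose test held 20.8% of the counts of irradiated pool 1, against 43.8% and 64.2% in the sham pools and 41.6% in irradiated pool 2. Each dose statement below is therefore given under both scalings where they differ.

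Most well-filled regions were missing from exactly 1 library, and there they were mostly empty. Only 82 (7.99%) were filled in all 4 libraries, and 944 in 3. Sham pool 2, with the smallest total over the list, was the one below 5 counts in 357 regions (34.8%) and sham pool 1 in 241 (23.5%). Irradiated pool 1 was the low one in 197 (19.2%) and irradiated pool 2, with the largest total, in 149 (14.5%). In 638 of the 944 regions (67.6%) the low library held no read, in 116 it held 1, in 69 it held 2, in 77 it held 3 and in 44 it held 4. The median count of the filled libraries of these regions was 9. The share at 0 was much alike whichever library was low, 67.2% for sham pool 1, 68.9% for sham pool 2, 64.0% for irradiated pool 1 and 69.8% for irradiated pool 2.

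Where they were present, well-filled regions held few reads. Over all 1026, sham pool 1 had a median count of 8 (range 0 to 43), sham pool 2 of 6 (0 to 71), irradiated pool 1 of 7 (0 to 22) and irradiated pool 2 of 9 (0 to 96). The 4 ranges overlapped broadly. Irradiated pool 1 had the narrowest range and no region above 22. Summed over the 4 libraries, a well-filled region held a median of 31 counts (16 to 110), against 23 in regions filled in 2 libraries and 15 in regions filled in 1. The highest library of a region differed less between these classes, with a median of 14 counts in well-filled regions, 14 in regions filled in 2 and 13 in regions filled in 1. Irradiated pool 2 alone was highest in 358 regions, sham pool 1 in 250, irradiated pool 1 in 182 and sham pool 2 in 165, and 71 were tied.

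**Figure D1:**
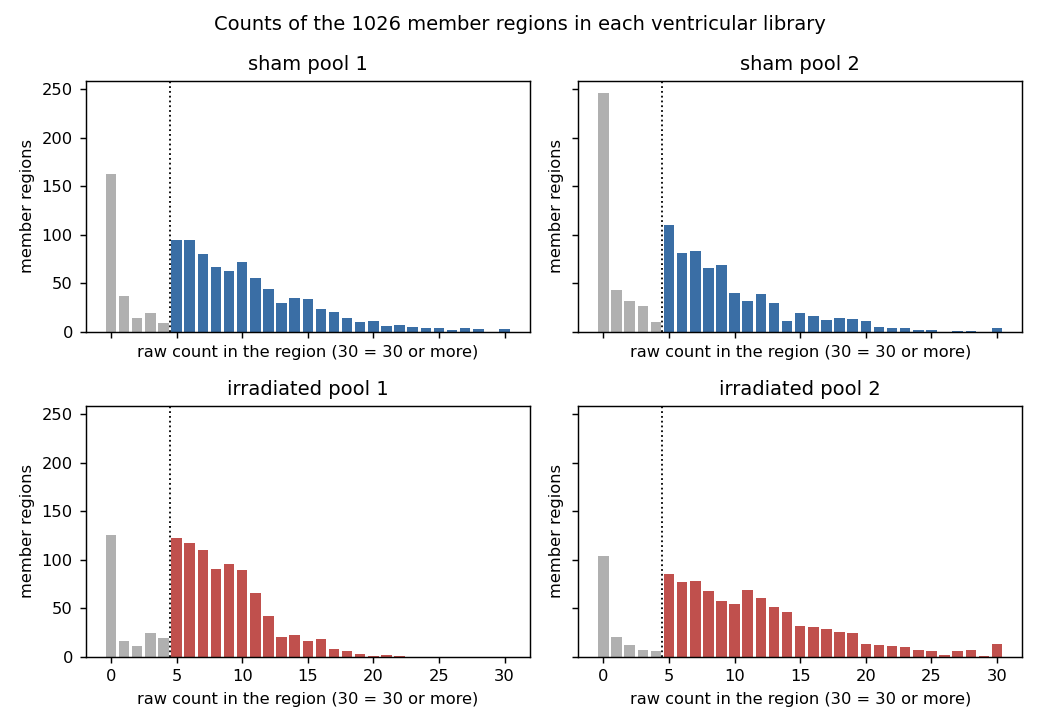
Number of well-filled regions (y axis) at each raw count (x axis, 30 or more in the last bar) in the 4 ventricular libraries. Grey bars left of the dotted line are counts under 5, and each library shows a peak at 0 counts (162, 246, 126 and 104 regions) with few regions at 1 to 4.

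In irradiated pool 1, the whole ventricular list stepped from 537 regions at 8 counts to 991 at 9 counts. Among well-filled regions the step was absent, with 90 at 8 counts and 96 at 9. Regions filled in 2 libraries went from 226 to 384 there. The part of this step in other results was not tested.

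Membership depended on a few reads in many regions. In 346 well-filled regions (33.7%) the third-highest of the 4 counts was exactly 5, the least the rule allows. Another 462 regions had a third-highest count of 4 and stayed outside, 12.9% of those filled in 2 libraries. Just inside in genome order were chromosome 1 at 9873249 to 9875792, where the sham pools held 6 and 5 reads and the irradiated ones 15 and 0, and chromosome 1 at 13043363 to 13045906, with 12 and 0 against 5 and 17. Just outside were chromosome 1 at 14833434 to 14835977, with 6 and 0 against 4 and 19, and at 20923873 to 20926416, with 4 and 0 against 8 and 12. A single read in the third-highest library thus separates regions on either side of the threshold.

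Rank correlations between pools across the well-filled regions were negative in every pair, which the rule that chose these regions favours. Across the 1026 regions the Spearman correlation of the counts was -0.212 for the sham pair and -0.269 for the irradiated pair. The 4 pairs of a sham with an irradiated pool gave -0.303, -0.136, -0.191 and -0.104. These values share libraries and depth, and the rule itself allows only 1 low library per region. In the 82 regions filled in all libraries the sham pair correlated at -0.143 and the irradiated pair at -0.0643, and the 4 cross-group pairs ranged from -0.343 to 0.176. Within the regions filled in 2 libraries the sham pools gave -0.220 and the irradiated pools -0.404. Within those filled in 1 the values were 0.0124 and -0.480. The same counts define these classes, and no region filled in 1 library can reach 5 counts in both pools of a pair. Of the regions filled in 1, irradiated pool 1 alone filled 2320, irradiated pool 2 766, sham pool 1 540 and sham pool 2 35. Correlations within these classes are therefore a description and no measure of pool agreement. Over all 11664 ventricular regions, where no fill rule applies, the sham pair gave 0.0480 and the irradiated pair -0.466.

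Sizes were compared in the same descriptive way. On scaled counts (CPM, the count a library would hold at a fixed total, here with TMM and related to the counts in tested regions), the sham pools lay within 2-fold of each other in 305 of the 1026 regions (29.7%) and over 4-fold apart in 529 (51.6%). The irradiated pools lay within 2-fold in 441 (43.0%) and over 4-fold apart in 313 (30.5%). Over all 11664 ventricular regions the sham pair lay within 2-fold in 33.0% and over 4-fold apart in 58.3%. For the irradiated pair these shares were 20.6% and 66.0%. A value of 1 was added to each CPM, so a region empty in both pools counts as within 2-fold. Across the 1026 regions, cross-group pairs lay within 2-fold in 36.3% to 41.9%, so a pool was not closer to its own group in the sham case. In regions filled in 2 libraries, 21.6% of sham pairs and 21.9% of irradiated pairs lay within 2-fold. In those filled in 1 library the shares were 47.7% and 8.06%, so the sham share did not rise steadily with fill. Regions filled in all 4 libraries reached 64.6% and 68.3%, a difference the rule favours because it bounds every count from below.

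The scatter between pools is given as a description, since a rule that admits 1 library below 5 counts favours a wide scatter. The chi-square per degree of freedom, which is about 1 where counts differ by sampling alone, was 5.86 for the sham pair and 4.44 for the irradiated pair. In the 82 regions filled in all libraries it was 2.05 and 1.61, and the 4 cross-group pairs gave 0.973, 2.23, 1.65 and 2.23. In these 82 the rule favours a narrow scatter, because it bounds every count from below. For regions filled in 2 libraries the same measure was 7.65 and 7.80. The median coefficient of variation of CPM over the 4 libraries was 0.759 in well-filled regions, 0.371 where all 4 were filled and 1.17 where 2 were filled.

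**Figure D2:**
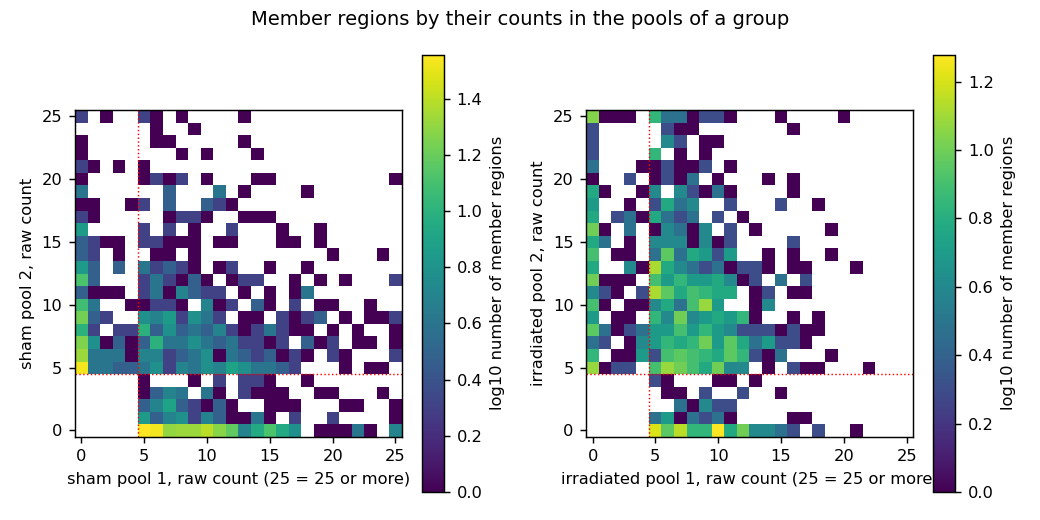
Raw counts of the well-filled regions in pool 1 (x axis) against pool 2 (y axis) of the sham group (left) and the irradiated group (right), with colour giving the log10 number of regions per cell and dotted lines the minimum of 5 counts. Regions gather along both axes at 0 and show no rising diagonal (Spearman -0.212 and -0.269 across 1026 regions).

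Among the regions that held reads in every pool, the one with the largest lowest count stood on chromosome 13 at 53174334 to 53176877. It held 11 counts in each of the 4 libraries. The next were chromosome 18 at 56098538 to 56101081, where the sham pools held 9 and 17 reads and the irradiated ones 11 and 15, and chromosome 7 at 108030529 to 108033072, with 14 and 9 against 9 and 10. On chromosome 11 at 107225496 to 107228039 the counts were 8 and 11 against 9 and 19, and on chromosome 1 at 71674657 to 71677200 they were 11 and 13 against 11 and 8. Under TMM, sham and irradiated CPM overlapped in 4 of these 5 regions, of which those on chromosomes 13, 7 and 1 were lower in both irradiated pools by total counts. The exception was the region on chromosome 11, at 313.5 CPM ± 104.0 in the sham and 413 CPM ± 35.5 in the irradiated pools (SD, n = 2 each), and by total counts its groups overlapped as well.

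Of the 5 regions with the largest mean CPM, 4 had 1 or 2 libraries far above the others. The region on chromosome 8 at 38827311 to 38829854 held 71 counts in sham pool 2 but 6 in sham pool 1, and 9 and 22 in the irradiated pools. That on chromosome 15 at 102235318 to 102237861 held 96 counts in irradiated pool 2 and 0 in irradiated pool 1, with 7 in each sham pool. In both, pools of 1 group lay further apart than the group means. On chromosome 4 at 117851282 to 117853825 sham pools held 13 and 42 reads and irradiated pools 3 and 37. On chromosome 16 at 42874371 to 42876914 the counts were 5 and 42 against 2 and 40, so pool 2 was the higher one at both doses in these regions. The fifth, on chromosome 7 at 16539076 to 16541619, held 17 and 0 against 20 and 30.

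The most even regions over the libraries held 4 to 12 counts each. The smallest coefficient of variation, 0.118, belonged to chromosome 10 at 94977924 to 94980467, where the sham pools held 9 and 8 reads and the irradiated ones 8 and 12 (276 CPM ± 8.17 against 311 CPM ± 48.2, SD, n = 2). It was followed by chromosome 8 at 106435698 to 106438241 (0.141), chromosome 5 at 20440799 to 20443342 (0.149), chromosome 1 at 91771648 to 91774191 (0.161) and chromosome 4 at 138769855 to 138772398 (0.169). By total counts both irradiated pools were lower in the regions on chromosomes 10 and 8, whose groups overlapped under TMM. The regions on chromosomes 5 and 1 were lower under both scalings, and that on chromosome 4 overlapped under both. None of these 5 regions met the filter of the dose test. That filter takes counts relative to library totals over the list, so fewer reads suffice in sham pool 2, which has the smallest total.

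No well-filled region passed the test of 1 Gy against 0 Gy. The test (edgeR, quasi-likelihood) covered 2252 ventricular regions, of which 0 passed a false discovery rate (FDR) of 0.05 (0.0% of the list tested). Of the 1026 well-filled regions 458 met its filter on low counts, including 54 of the 82 filled in every library. At an unadjusted p under 0.05 there were 57 regions in the list (2.53%) and 0 among the 458. DESeq2, which tested all 11664 regions, called 0 (0.0%) and gave 0 well-filled regions an unadjusted p under 0.05. The rule bears on this: at most 1 library of a well-filled region is below 5 counts, so neither dose group can be empty. Standard errors (SE) of the log2 fold changes had a median of 2.11 in the 458 regions and 2.38 over all tested regions.

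The direction of the dose difference in well-filled regions turned with the scaling and with the regions on which the scaling was computed. Under TMM 220 regions (21.4%) had each irradiated value above each sham value and 121 (11.8%) had each below, and over all 11664 ventricular regions this held for 23.7% and 5.8%. By total counts the numbers were 90 higher (8.77%) and 225 lower (21.9%), against 20.1% and 8.27% of the whole list. The groups overlapped in 685 regions under TMM. Some 90 regions were higher and 121 lower under both scalings, and 0 were called in opposite directions. DESeq2-type size factors gave 275 higher and 79 lower, and loess offsets 125 higher and 160 lower. TMM over unfiltered regions gave 96 higher and 203 lower, nearer to total counts than to TMM over the tested regions. Shares over the whole list are not given for these settings, so their counts are not compared with it. The split between higher and lower therefore describes the scaling, and the regions behind it, as much as the well-filled regions.

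The fill rule itself largely fixes which direction a region can take: with 3 libraries at 5 counts or more and 1 below, the low library tends to set its own dose group lowest. All 209 regions higher under TMM among those filled in 3 libraries lacked a sham pool, 139 lacking sham pool 2 and 70 lacking sham pool 1. All 114 lower ones lacked an irradiated pool, 88 lacking irradiated pool 1 and 26 lacking irradiated pool 2. By total counts the same held but for 3 regions that lacked sham pool 2 and were lower. In the 82 regions filled in every library 11 were higher, 7 lower and 64 overlapped under TMM, and 1 was higher and 35 lower by total counts. In regions filled in 2 libraries, where the rule fixes the direction in the same way, of the 1118 filled in the irradiated pools only, 1106 were higher, and of the 168 filled in the sham pools only, 166 were lower under TMM. Nothing about dose is read from these counts.

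**Figure D3:**
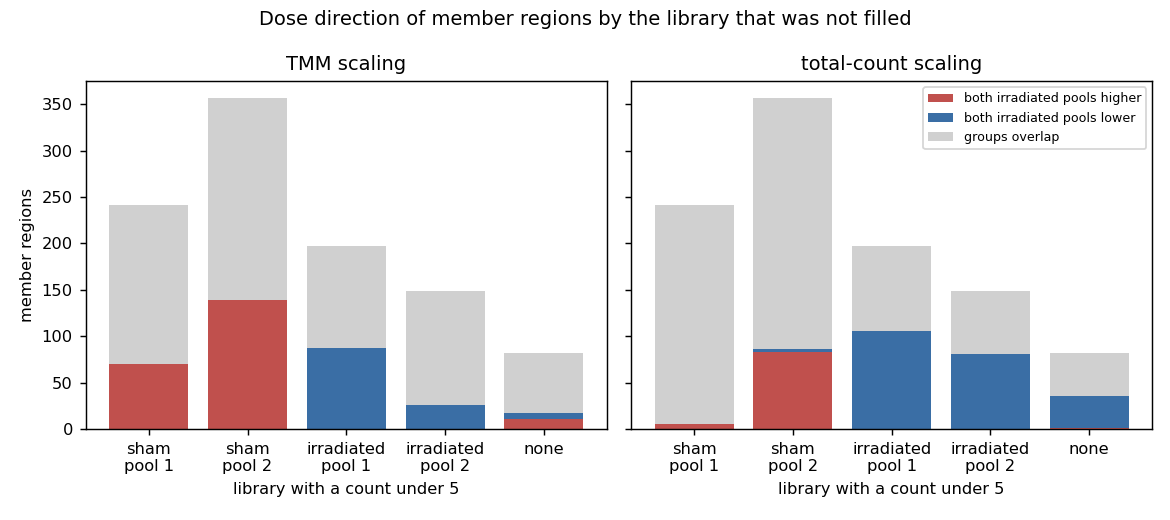
Number of well-filled regions (y axis) by the library with fewer than 5 counts (x axis), coloured by whether both irradiated pools were above, below or overlapping the sham pools, under TMM (left) and total-count scaling (right). The 220 higher and 121 lower regions under TMM become 90 and 225 by total counts.

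Over the 458 tested regions, the median log2 fold change was -0.0048 (quartiles -0.97 and 0.99), with 228 above and 230 below 0. The same median over all 2252 tested regions was 0.20. With the 133 regions empty in 1 dose group set to the 3-count floor it was 0.20 as well. A median does not move while such regions stay on the same side of it, so this is no sign of stability. With DESeq2-type size factors the medians were 0.33 and 0.47, and by total counts -0.59 and -0.34. The median of the well-filled regions minus that of the list was -0.20 under TMM, -0.14 with size factors, -0.25 by total counts and 0.29 with loess offsets. It was -1.05 without the filter, -1.08 in DESeq2 and -0.45 with a replicate block. It was -2.14 without sham pool 1, -0.73 without sham pool 2, -0.54 without irradiated pool 1 and -0.081 without irradiated pool 2, so its size, and with loess offsets its sign, depended on the setting. The filter did not keep all fill patterns alike. It kept 102 of the 241 regions lacking sham pool 1 and 73 of the 357 lacking sham pool 2. Of the 197 lacking irradiated pool 1 it kept 150, and of the 149 lacking irradiated pool 2 it kept 79. Under TMM 61 of the 458 (13.3%) were higher and 94 (20.5%) lower, against 10.3% and 18.3% of all tested regions. Since the filter can also pass a region through 1 dose group only, these medians are a description of the regions that passed.

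Of the regions higher in both irradiated pools, the 5 with the lowest p were carried by 33 or more irradiated counts each. On chromosome 7 at 52966639 to 52969182 sham pools held 2 and 5 reads and irradiated pools 16 and 19, 118 CPM ± 82.0 against 564 CPM ± 178 (SD, n = 2). edgeR put its log2 fold change at 2.23 with an SE of 1.66, an unadjusted p of 0.218 and an FDR of 1.00. It was 1.10 without sham pool 1 and 2.96 without sham pool 2.

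The other 4 had the same shape, with 0 to 2 counts in sham pool 2. They stood on chromosome 2 at 119921052 to 119923595 (5 and 1 against 15 and 18 counts), chromosome 5 at 149060441 to 149062984 (5 and 0 against 15 and 18), chromosome 14 at 35039174 to 35041717 (7 and 0 against 18 and 18) and chromosome 7 at 87599621 to 87602164 (11 and 2 against 15 and 32). Their log2 fold changes in edgeR were 2.46, 2.74, 2.44 and 1.76 in that order, each with FDR 1.00. Without sham pool 2 they were 1.60, 1.60, 1.27 and 0.92. Without sham pool 1 the region on chromosome 5 and that on chromosome 14 had no sham read left, and no fold is printed for them. All 5 regions were higher under total-count scaling too. The region on chromosome 5 ended 0.029 kb from a hippocampal region, the others 5.61 to 109 kb away.

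Of the regions lower in both irradiated pools, the 5 with the lowest p were nearly empty in irradiated pool 1. The smallest p of all well-filled regions belonged to chromosome 4 at 8879578 to 8882121, where the sham pools held 28 and 12 reads and the irradiated ones 0 and 5, 631 CPM ± 295 against 57.7 CPM ± 81.5 (SD, n = 2). edgeR put its log2 fold change at -3.27 with an SE of 1.93, an unadjusted p of 0.128 and an FDR of 1.00, and without irradiated pool 1 it was -2.53.

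Next came chromosome 9 at 115740937 to 115743480 (15 and 20 against 0 and 6 counts) and chromosome 17 at 47915809 to 47918352 (13 and 23 against 1 and 8). Chromosome 6 at 28374354 to 28376897 held 25 and 12 against 0 and 7, and chromosome 10 at 69565577 to 69568120 held 20 and 14 against 0 and 6. Their log2 fold changes in edgeR were -2.90, -2.31, -2.72 and -2.83, each with FDR 1.00. Irradiated pool 2 was below both sham pools in all 5 regions, at 5 to 8 counts. Without it, 4 of the 5 had no irradiated read left, and no fold is printed for them, and the region on chromosome 17 was at -4.04. All 5 were lower by total counts as well.

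As a share of a library, well-filled regions took less in irradiated than in sham pools. They held 10.3% (95% exact binomial interval 10.1 to 10.5) and 13.8% (13.5 to 14.1) of all ventricular counts in the sham pools, and 8.58% (8.40 to 8.77) and 9.52% (9.35 to 9.69) in the irradiated pools. These intervals cover counting error only. The means were 12.0% ± 2.47 and 9.05% ± 0.662 (SD, n = 2), a difference of -2.98 percentage points, given with no test because the same counts chose the regions. Without sham pool 2 the difference was -1.24 percentage points and without sham pool 1 it was -4.73. Regions filled in 2 libraries took 27.0% and 22.1% of sham counts and 29.4% and 27.1% of irradiated ones. Their direction turned with the denominator: of the counts in autosomal regions of the same width without hippocampal overlap they took 52.1% and 53.7% without irradiation and 41.1% and 50.8% with it, a difference of -6.99 percentage points, where that of the well-filled regions was -11.8. Regions filled in 1 library took 14.5% and 5.26% against 33.6% and 16.8%. These shares add up to a fixed total with the rest of the list and depend on which library filled a region, so the classes are not independent of each other.

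Well-filled regions were spread over all autosomes nearly in proportion to the list. Over the 8284 regions of the same kind, 12.4 in 100 were well filled, and single autosomes ranged from 10.3 in 100 on chromosome 10 (47 of 458, 95% exact binomial interval 7.64 to 13.4) to 15.2 in 100 on chromosome 9 (79 of 519, 12.2 to 18.6), a ratio of 1.48. Chromosome 5 followed with 14.8 in 100 (80 of 541). The intervals of all 19 autosomes held the overall value. Chromosome 1, with 559 such regions, had 59 well-filled ones (10.6 in 100), whereas chromosome 2, with 589, had 79 (13.4 in 100). In regions filled in 2 libraries the share ran from 40.1 in 100 on chromosome 9 to 47.1 in 100 on chromosome 11, and in regions filled in 1 from 39.9 in 100 on chromosomes 18, 11 and 5 to 48.9 in 100 on chromosome 10.

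**Figure D4:**
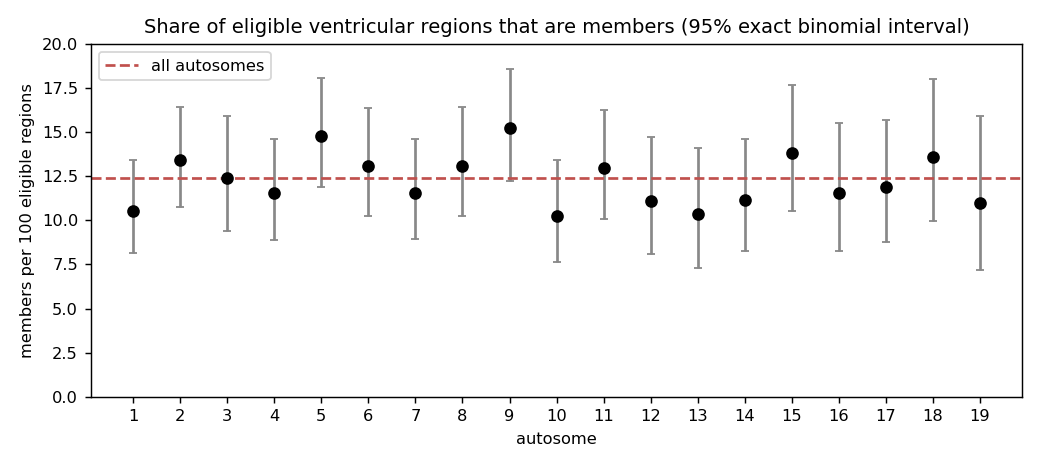
Well-filled regions per 100 autosomal regions of the same width without hippocampal overlap (y axis) on each autosome (x axis), with 95% exact binomial intervals that cover counting error only. Values run from 10.3 to 15.2 around 12.4 (dashed line), and every interval crosses that line.

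Per length of chromosome the spread was wider. Between the first and last listed region, well-filled regions stood at 0.654 per Mb on chromosome 9 and 0.299 per Mb on chromosome 13, with a median of 0.417 over the autosomes. The share of well-filled regions and the number of listed regions per Mb had a Spearman correlation of 0.444 across the 19 autosomes, which share the same 4 libraries. Dose direction did not set autosomes apart in a stable way. Under TMM 17 autosomes had more higher than lower regions, chromosome 13 had 7 of each and chromosome 4 had 7 higher and 14 lower. By total counts all 19 had more lower than higher, and chromosome 4 had 3 and 20. Chromosome 2, with the largest excess of higher regions under TMM (22 higher and 10 lower), had 7 and 16 by total counts. Over the whole ventricular list 23.7% of regions were higher and 5.8% lower under TMM, and 20.1% and 8.27% by total counts. Whole-list shares of single autosomes are not given, so nothing about single autosomes is read from these counts.

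Well-filled regions stood mostly apart from each other. The median distance to the nearest other well-filled region was 512 kb, 320 regions (31.2%) had none within 1 Mb and 15 had one within 5 kb. Of the 2108 megabase bins that held a region of the same kind, 752 held a well-filled one, 546 of them exactly 1. The most in a bin was 5, on chromosome 8 from 123000001 to 124000000 (of 9 such regions) and on chromosome 9 from 29000001 to 30000000 (of 11). The closest pair lay 101 bp apart on chromosome 10, at 78048748 to 78051291 and 78051393 to 78053936. Its members held 7 and 1 against 10 and 17 counts, and 9 and 0 against 7 and 8, so sham pool 2 was the low library in both neighbours.

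Position relative to other lists was not used to fill a region, and it differed by degrees between the classes. Of the regions without overlap that were filled in 1 library, 63.4% were filled in irradiated pool 1 alone. Gradients with the number of filled libraries therefore also compare libraries, and number and library were not separated. Before regions shared with hippocampus were left out, the share that overlapped a hippocampal region was 8.75% of the 4012 autosomal regions of this width filled in 1 library (95% exact binomial interval 7.89 to 9.67). It was 10.7% of the 4019 filled in 2 (9.78 to 11.7), 14.2% of the 1100 filled in 3 (12.2 to 16.4) and 28.7% of the 115 filled in all 4 (20.6 to 37.9). The intervals cover counting error only, and each tissue has a single region list without replicates. The 189 overlapping regions filled in 3 or 4 libraries are outside the 1026 by the rule.

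Regions without overlap showed a smaller gradient. The median gap to the nearest hippocampal region was 19.7 kb in well-filled regions, 23.2 kb in regions filled in 2 libraries and 27.9 kb in those filled in 1, and 24.1 kb in the 82 filled in all 4. A gap over 100 kb was found for 8.58% of well-filled regions, 11.7% of those filled in 2 and 16.0% of those filled in 1. The nearest hippocampal region had a median of 38.8 CPM (scaled by total counts, mean of 4 hippocampal libraries) beside well-filled regions, 38.2 beside regions filled in 2 and 36.7 beside those filled in 1. The neighbours thus differed in distance more than in level.

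Other ventricular regions were also nearer. The median gap to the nearest listed ventricular region was 34.0 kb for well-filled regions, 44.7 kb for those filled in 2 libraries and 53.9 kb for those filled in 1. No other listed region stood within 100 kb of 21.6%, 27.0% and 32.8% of them. Along the chromosomes, taken from the first to the last listed region, 43.5% of well-filled regions lay in the last of 3 equal parts of the span, against 41.9% and 37.2%. In the final 10% of the span the shares were 17.3%, 14.6% and 13.0%. No test of these gradients was made, since regions are not replicates.

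**Figure D5:**
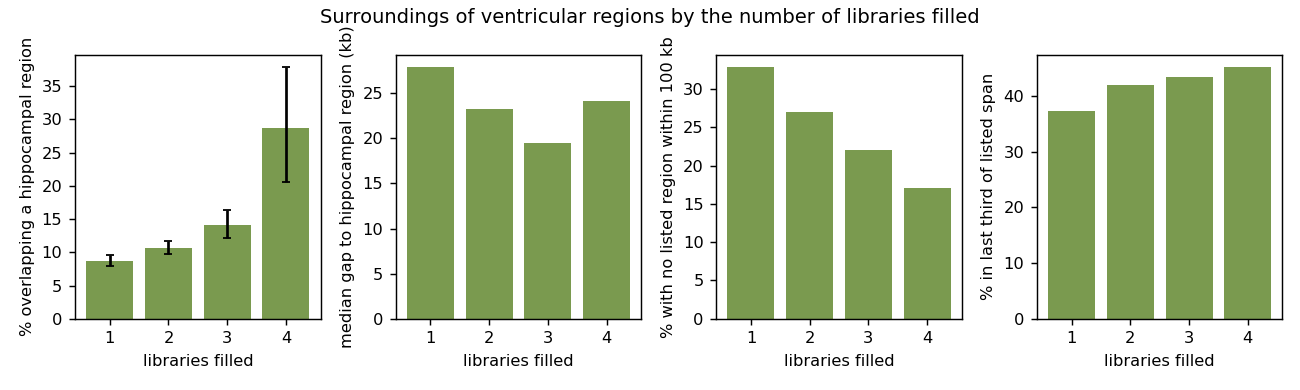
Surroundings of autosomal ventricular regions of the same width by the number of libraries filled (x axis). The first panel, with overlapping regions included, gives the share overlapping a hippocampal region with its 95% exact binomial interval. The other panels cover regions without overlap only. They give the median gap to the nearest hippocampal region in kb, the share with no other listed region within 100 kb, and the share in the last of 3 equal parts of the listed span. From 1 to 4 libraries filled, overlap went from 8.75% to 28.7%, and the share without a neighbour in 100 kb became smaller in each step.

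The most isolated well-filled regions lay far from any hippocampal region. On chromosome 2 at 100639269 to 100641812 the gap was 654 kb, where the sham pools held 10 and 0 reads and the irradiated ones 9 and 6. On chromosome 19 at 52578764 to 52581307 it was 519 kb, with 8 and 10 against 3 and 7, so both irradiated pools were lower under both scalings. On chromosome 13 at 61289401 to 61291944 it was 440 kb, with 0 and 5 against 8 and 5. All 3 were filled in 3 libraries, and none reached the filter of the dose test.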

How the data were processed

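The authors deposited, for each library, unnormalized read counts over the merged peaks of its tissue, with no header line. Named in the submitters' processing notes, without their roles, are the tools Bowtie 1.0.0, CASAVA 1.8.2 and DESeq2 and the build mm9. The sources used here do not give the peak caller, merging rule, duplicate handling or input control, and regions listed because a library was high there are favoured by such a list. Starts were raised by 1, as for BED intervals. Groups came from the sample titles.

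All 11664 ventricular regions were fitted with edgeR 4.0.16 (R 4.3.3): filterByExpr, TMM, a quasi-likelihood F-test of 1 Gy against 0 Gy and Benjamini-Hochberg adjustment over the 2252 regions that passed. Standard errors were taken from the F statistic. CPM is a count divided by the TMM-scaled total of the tested regions. Alternatives were DESeq2 1.42.0, other scalings, no filter, a fit without each library, a replicate block and other membership rules. The scripts were tested on simulated data.

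Named regions are, among the well-filled ones, the 5 with the largest lowest count, the 5 with the largest mean CPM, the 5 smallest p per direction without overlap of the groups, the 5 smallest coefficients of variation, the closest pair, the 3 farthest from hippocampal regions and the first on each side of the threshold. The 2 densest megabase bins, and the autosomes singled out, were chosen after their values were seen. The regions and rules were chosen with earlier results of these data known. Where the labels do not say that pools came from separate animals, p-values measure the spread between these pools only.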

Additional observations from a re-analysis of the deposited data

How the results depend on the processing

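No well-filled region passed the FDR in edgeR under each scaling run, without the filter or with any library left out, or in DESeq2 with its own size factors, and 3 had an unadjusted edgeR p under 0.05 without irradiated pool 2. The 10 regions named for dose had a smallest FDR of 0.921 over 110 recomputed values. Their direction is no sign of stability, since they were chosen for groups that do not overlap. Replicate numbers do not pair these pools by the labels. The deviations of same-numbered pools correlated at -0.117, the replicate block gave 0 calls and a median log2 fold change of -0.37, and the crossed pairing, chosen after seeing the data, also gave 0 calls and -0.37.

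Counts of non-overlapping regions, 220 higher and 121 lower, were 90 and 225 by total counts, 96 and 203 with TMM over unfiltered regions, 125 higher with loess offsets and 79 lower with DESeq2-type size factors. Without 1 library they ranged from 257 to 375 higher and 270 to 416 lower, since 3 libraries separate more easily. A minimum of 3 counts gave 2047 regions (485 higher, 199 lower), a minimum of 8 gave 259 (37 and 45), all 4 libraries 82 (11 and 7), and every width 1580 (200 lower). Whole-list shares are given above for TMM and total counts only, so counts under the other settings are not compared with the list. The median log2 fold change, -0.0048, was 0.33 with DESeq2-type size factors, -0.59 by total counts, -0.16 with loess offsets, -0.16 unfiltered, 0.076 at a minimum of 3, -0.10 at 8, 0.013 in all 4 libraries and -0.43 to -0.020 with 1 library left out.

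The share difference of -2.98 percentage points was -11.8 of the counts in regions of the same kind, -15.0 with hippocampal overlap kept and -4.73 to -1.24 with 1 library left out. The sham correlation was -0.293 and the irradiated one -0.203 as Pearson of log2(CPM + 1), and -0.143 and -0.0643 in all 4 libraries. The irradiated one was -0.334 at a minimum of 3 and -0.169 at 8. The ratio of the highest to the lowest autosome was 5.54 in the 82 regions filled in all 4 libraries. It rests on 9 of 489 regions on chromosome 8 and 1 of 301 on chromosome 18, so a single region moves it widely. The cause of these shifts was not tested. A count of 0 allows 69.2 to 129 CPM, so differences near that level were not detectable.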
